A study of Mus musculus with 9 samples.

Results

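Cytosolic ribosomal proteins are the protein parts of the ribosomes that translate messenger RNA in the cytoplasm. The genes measured here were those whose symbol follows the names of the large subunit (Rpl), the small subunit (Rps), the stalk (Rplp0, Rplp1, Rplp2) or Rpsa, and that had at least one probe set paired by the array's annotation with that symbol alone. This rule found 46 genes, 24 of the large and 22 of the small subunit, among the 18193 genes with such a probe set, and it used no measured difference. Where a gene had several such probe sets, the one with the highest mean level over the 9 arrays stood for the gene. RNA came from E14 mouse embryonic stem (ES) cells, an established ES cell line, on 4 Affymetrix whole-genome mouse arrays (numbered 2, 6, 8 and 10) and from embryoid bodies of the same cells, aggregates in which ES cells differentiate, on 5 arrays (numbered 1, 3, 5, 7 and 9). All samples are labelled as receiving no treatment, and neither the days of culture nor the method of aggregation is given for the embryoid bodies. Where nothing says that arrays of a group came from separate cultures, as for the embryoid bodies, a p-value measures only the spread between these samples, which may be technical.

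A ribosome is built from one copy of nearly every ribosomal protein, so the genes of the family are usually expressed together and at high levels. Their messenger RNAs commonly begin with a run of pyrimidines, the terminal oligopyrimidine or TOP motif, through which the mTOR pathway controls their translation. A few genes have paralogues that are restricted to certain tissues or cell states, such as Rpl39l in mouse male germ cells and Rpl3l in heart and skeletal muscle. ES cells divide rapidly and are known for abundant ribosome production and a comparatively low rate of protein synthesis.

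All levels are log2 of the deposited GCRMA values, in which 1 unit is a doubling, and every difference is embryoid bodies minus ES cells. A gene was called at a Benjamini-Hochberg adjusted p under 0.05 in a limma fit of all 45037 probe sets that are not manufacturer's controls. The precision of these values is limited by the number of arrays. Array medians lay between 4.01 and 4.09 and arrays of a group correlated across probe sets at Pearson r = 0.995 to 0.999, against 0.968 to 0.977 between groups. Of 7 ES cell markers 6 were called lower in embryoid bodies (Zfp42 by -6.47, Nanog by -3.34, Pou5f1 by -3.17), and Esrrb was not. Of 5 mesoderm and heart markers 4 were called higher, with the cardiac myosin light chain Myl7 at 9.05, and 3 of 3 mesenchyme markers, 2 of 3 blood markers and 2 of 4 endoderm markers were called higher. Of 3 neural markers 1 was called lower, 1 higher and 1 not called. The shares over all genes were 14.7% lower and 15.7% higher. ES cell arrays 8 and 10 stood apart from arrays 2 and 6 in the collagen Col1a1, with levels of 9.03 and 9.02 against 6.98 and 6.78, and results are therefore also given within array numbers 1 to 6 and 7 to 10, ranges chosen with this in view. The labels do not say what the numbers stand for.

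As a family the ribosomal protein genes differed little between ES cells and embryoid bodies, and what differed was lower in embryoid bodies. The median difference over the 46 genes was -0.08, or 1.06-fold higher in ES cells, with the middle of the distribution between -0.17 and -0.03. The sign was negative for 41 genes and positive for 5. Over all 18193 genes the median difference was -0.04, and over the 258 genes with a mean of log2 12 or more it was -0.07. In RNA of whole aggregates, fewer cells of a type and less RNA per cell cannot be told apart.

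Of the 46 genes, 15 (32.6%) were called lower and 0 higher, and 31 were not called. Over all genes 14.7% were called lower and 15.7% higher. At a mean of log2 12 or more, a level chosen after the values were seen, 10 of 34 members were called lower. Among all 258 genes at that level 38.4% were, so the lower direction was not particular to the family. In 15 of the 46 genes every embryoid body array lay below every ES cell array, in 31 the groups overlapped and in 0 did the embryoid body arrays all lie above, where the shares over all genes were 19.4% for all below and 15.6% for all above. The large subunit had 10 of 24 genes called lower with a median difference of -0.12, and the small subunit 5 of 22 with a median of -0.05. The difference between the subunits was not tested.

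**Figure D1:**
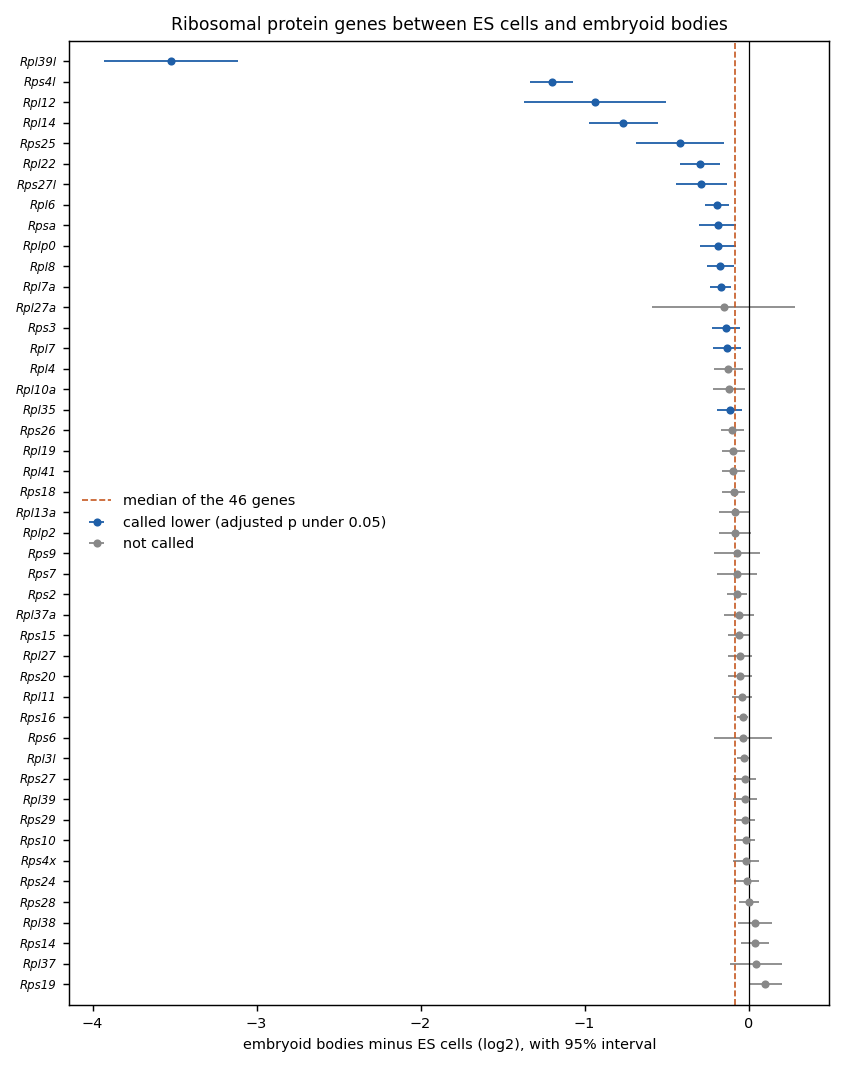
Difference in log2 level between embryoid bodies and ES cells for each of the 46 ribosomal protein genes (points) with its 95% confidence interval from the limma fit (bars), in order of size, with called genes in blue. Most genes lie between -0.2 and 0.1 around the median of -0.08 (dashed line), and Rpl39l, Rps4l, Rpl12 and Rpl14 lie far to the left.

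The small common difference depended on how arrays were scaled and on which arrays were compared. After quantile normalization between arrays the median difference was -0.02, against -0.01 over all genes. Then 10 genes were called lower and 3 higher, namely Rps19 at 0.19 (adjusted p = 0.0011 by limma), Rps14 at 0.12 (adjusted p = 0.016) and Rpl38 at 0.12 (adjusted p = 0.011). Among arrays 1 to 6 the median difference was -0.14 and 45 of 46 genes were negative, whereas among arrays 7 to 10 it was -0.04 and 33 of 46 were negative. With the array range as a term in the fit it was -0.09, with 17 genes called lower and 0 higher. The shares called over all genes were counted in the main fit only, so these counts have none beside them.

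The same dependence can be seen array by array. The deviation of each gene from its own mean over the 9 arrays was taken, and its median over the 46 genes was 0.10 on ES cell array 2, 0.07 on array 6, 0.03 on array 8 and -0.01 on array 10. In embryoid bodies it was -0.07 on array 1, -0.01 on array 3, -0.05 on array 5, -0.02 on array 7 and -0.03 on array 9. ES cell arrays 2, 6 and 8 lay above every embryoid body array, and ES cell array 10 lay among them, just below array 3. The number of genes above their own mean was 43, 45, 40 and 20 on the ES cell arrays and between 2 and 19 on the embryoid body arrays.

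**Figure D2:**
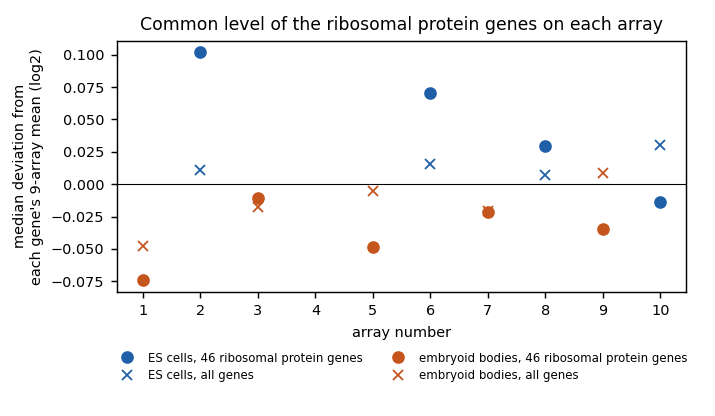
Median deviation from each gene's mean over 9 arrays (log2, vertical axis) against array number, for the 46 ribosomal protein genes (circles) and all genes (crosses), in ES cells (blue) and embryoid bodies (orange). The circles of ES cell arrays 2 and 6 stand highest at 0.10 and 0.07, and array 10 at -0.01 falls within the range of the embryoid bodies.

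Of the 46 genes, 34 had a mean of log2 12 or more, where GCRMA values are near the top of the range measured (15.19). In these the differences ran from -0.29 to 0.10, and 10 genes were called lower. Among all 258 genes at this level 38.4% were called lower with a median of -0.07, against -0.08 for the 34. This level was chosen after the values were seen. The 12 genes under it held the largest differences, from -3.52 to 0.04, and include 2 whose representative probe set lay under log2 4 (Rps16 and Rpl3l), near the floor of the scale. Rps16 also has a pair of probe sets shared with pseudogenes or predicted genes, with means of 15.10 and 13.68 and differences of -0.05 and -0.03, neither called. Rps27, Rpl27a, Rps6 and Rpl37, also among the 12, have such shared probe sets with means up to 14.16, 14.01, 14.55 and 14.88. Of these only that of Rpl27a was called, lower by -0.14 (limma adjusted p = 0.0022). On the representative probe sets of Rps16, Rpl3l, Rps27 and Rpl39 the 9 arrays spanned less than 0.1.

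Genes that departed from the family were sought in a second limma fit, in which the common level of the 46 genes was first subtracted from each array. A gene departed where the difference relative to this level passed an adjusted p of 0.05 and was at least 0.5 in size. By this measure 4 of the 46 genes departed downward and 0 upward, against 8.06% and 13.6% of all genes. The downward share was thus close to that over all genes. They were Rpl39l, Rps4l, Rpl12 and Rpl14. The remaining 42 genes lay between -0.42 and 0.10 in the first fit, and 11 of them were called lower, at -0.42 to -0.12.

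Rpl39l, a paralogue of the large-subunit protein Rpl39 known from mouse testis and also found in ES cells, had the largest difference of the family. On its 1 probe set ES cell arrays 2, 6, 8 and 10 read 8.97, 9.52, 9.90 and 9.73, and embryoid body arrays 1, 3, 5, 7 and 9 read 5.75, 6.23, 6.06, 5.95 and 6.04. Every ES cell array lay well above every embryoid body array, and the spread within groups was small beside the gap. The mean was 9.53 ± 0.40 (SD, n = 4) in ES cells and 6.01 ± 0.18 (SD, n = 5) in embryoid bodies, a difference of -3.52 (95% interval -3.93 to -3.11, limma adjusted p = 1.6e-06), or 11.5-fold. This was the 43rd largest fall among the 18193 genes. It was -3.23 within arrays 1 to 6 and -3.82 within arrays 7 to 10.

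Because Rpl39l is known from male germ cells, the 4 germ cell and testis markers of the marker list were read beside it. Of these, 3 of 4 were called lower in embryoid bodies and 0 higher, against 14.7% and 15.7% of all genes. The RNA helicase Ddx4 differed by -3.70, the meiotic chromosome protein Sycp3 by -3.08 and the RNA-binding protein Dazl by -0.92, while the sperm protamine Prm1 had a range of 5.59 to 5.62 in ES cells and 5.52 to 5.60 in embryoid bodies. The summed linear level of the list ran from 673 to 1536 on ES cell arrays and from 121 to 207 on embryoid body arrays. The part of these genes in the Rpl39l result was not tested.

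Rpl39, the partner of Rpl39l and part of the large subunit in all tissues, was not called in either direction. The probe set paired with Rpl39 alone was flat, at 9.58 ± 0.01 (SD, n = 4) in ES cells and 9.55 ± 0.02 (SD, n = 5) in embryoid bodies. A second probe set, which the annotation also pairs with predicted genes or pseudogenes, read 14.30, 14.34, 14.23 and 14.10 in ES cells and 14.33, 14.38, 14.30, 14.32 and 14.26 in embryoid bodies, a difference of 0.08 (limma adjusted p = 0.21) with overlapping groups.

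Rps4l, a copy of the small-subunit gene Rps4x that RefSeq annotates as a transcribed pseudogene on chromosome 6, was the only one of the 46 not annotated as protein coding. Its probe set read 12.18, 12.08, 12.12 and 12.15 in ES cells and 10.94, 11.08, 10.98, 10.84 and 10.81 in embryoid bodies. The groups were far apart and each was tight, with 12.13 ± 0.04 (SD, n = 4) against 10.93 ± 0.11 (SD, n = 5). The difference was -1.20 (95% interval -1.33 to -1.07, limma adjusted p = 1.1e-06), or 2.30-fold. Rps4x, on the X chromosome, differed by -0.02 (adjusted p = 0.73) on its own representative probe set.

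Rpl12, a protein at the base of the ribosomal stalk, departed on the probe set paired with it alone. ES cell arrays read 8.62, 8.35, 8.46 and 8.28, and embryoid body arrays 7.83, 7.97, 7.41, 7.15 and 7.09. The groups did not overlap, and embryoid body arrays 7 and 9 were the lowest. The difference was -0.94 (95% interval -1.37 to -0.50, adjusted p = 0.0062), and within arrays 1 to 6 it was -0.75 and no longer called (adjusted p = 0.061). A pair of other probe sets, shared with pseudogenes or predicted genes, had means of 14.43 and 13.57 in ES cells and differed by -0.11 (adjusted p = 0.14) and -0.21 (adjusted p = 0.065), with overlapping groups. Whether the probe sets read the same transcripts was not tested.

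Rpl14, a large-subunit protein, also departed on a probe set paired with it alone. On this probe set ES cell arrays read 8.95, 8.95, 8.64 and 8.62 and embryoid body arrays 8.08, 8.16, 8.0, 7.99 and 7.90. All embryoid body arrays lay below all ES cell arrays, and ES cell arrays 8 and 10 were the lower ones of their group. The difference was -0.76 (95% interval -0.97 to -0.56, adjusted p = 2.5e-04), and it was called within arrays 1 to 6 (-0.87, adjusted p = 0.0011) and within arrays 7 to 10 (-0.69, adjusted p = 0.0072). The 5 shared probe sets of Rpl14 differed by less, from -0.28 to -0.21, and each was called lower. With shared probe sets allowed to represent a gene, Rpl12 and Rpl14 no longer departed, leaving Rpl39l and Rps4l, neither of which has a shared probe set.

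**Figure D3:**
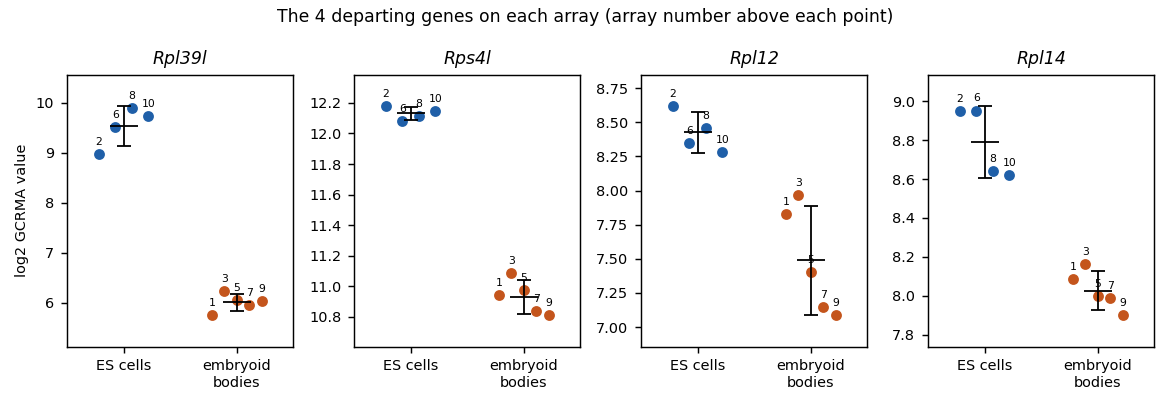
Log2 GCRMA level of Rpl39l, Rps4l, Rpl12 and Rpl14 on each array (points, with the array number) in ES cells (blue) and embryoid bodies (orange), with the group mean and 1 SD (black bars). Each panel has its own vertical scale, and in each the embryoid body arrays lie below the ES cell arrays, with differences between means of -3.52, -1.20, -0.94 and -0.76.

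The genes nearest to the threshold of departure were Rps25 and Rpl22 on the lower side and Rps19 and Rpl37 on the upper. Rps25, a small-subunit protein that some viral RNAs need for their translation, read 7.98, 8.23, 8.58 and 8.25 in ES cells and 7.81, 7.91, 7.92, 7.62 and 7.94 in embryoid bodies. ES cell array 2 lay close to the embryoid bodies, and the groups just failed to overlap. The difference of -0.42 (adjusted p = 0.033) was -0.33 relative to the family (adjusted p = 0.092). The shared probe set of Rps25 differed by 0.02 (adjusted p = 0.81), and the call was lost on leaving out any of ES cell arrays 6, 8 and 10 or embryoid body arrays 1, 3, 5 and 7 (adjusted p = 0.054 to 0.073).

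Rpl22, a large-subunit protein that binds RNA and is needed for T cell development in mice, gave opposite answers on different probe sets. Its representative read 14.04, 13.95, 13.95 and 13.77 in ES cells and 13.58, 13.67, 13.60, 13.70 and 13.59 in embryoid bodies, a difference of -0.29 (adjusted p = 0.0031). A second probe set differed by -0.39 (adjusted p = 2.9e-04). The remaining one read 9.15, 9.27, 8.55 and 8.64 in ES cells and 9.65, 9.72, 9.78, 9.77 and 9.64 in embryoid bodies, all above the ES cells, with a difference of 0.81 (adjusted p = 0.0031). All 3 are paired with Rpl22 alone, so the gene has no single direction on this array. It was the only one of the 100 probe sets of the 46 genes called higher, while 26 were called lower, against 10.5% called higher and 10.6% called lower over all probe sets.

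Rps19, a small-subunit protein whose human gene is mutated in Diamond-Blackfan anaemia, stood at the upper end of the family. It read 13.90, 13.93, 13.85 and 13.71 in ES cells and 13.89, 14.001, 13.98, 13.95 and 13.93 in embryoid bodies. The groups overlapped, with ES cell array 10 the lowest. The difference was 0.10 (adjusted p = 0.10) and 0.19 relative to the family (adjusted p = 0.0010), under the size set for a departure. Rps14, another small-subunit protein, and Rpl38, a large-subunit protein known in mice for its part in the translation of Hox messenger RNAs, were likewise 0.12 above the family (adjusted p = 0.0064 and 0.013). Rps14 read 13.77, 13.68, 13.61 and 13.58 in ES cells and 13.68, 13.73, 13.68, 13.68 and 13.72 in embryoid bodies, and Rpl38 read 13.86, 13.87, 13.79 and 13.67 against 13.79, 13.91, 13.81, 13.84 and 13.81. In both genes the groups overlapped and the differences in the first fit, of 0.04 each, were not called. Rpl37 of the large subunit differed by 0.04 (adjusted p = 0.62) and Rps28 of the small subunit by less than 0.01 (adjusted p = 0.93).

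Rpl13a of the large subunit was closest to the family, with 14.80, 14.71, 14.66 and 14.62 in ES cells and 14.58, 14.68, 14.57, 14.64 and 14.60 in embryoid bodies. The groups overlapped, and the difference was -0.09 (adjusted p = 0.12). Other probe sets paired with Rpl13a alone differed by -0.10, -0.48 and -0.67, of which the last 2 were called lower. Rps9 of the small subunit had the same feature, with -0.07 and -0.12, neither called, and -0.83 on the remaining probe set (adjusted p = 1.5e-04). Of the 66 probe sets with a mean of log2 12 or more, 0 differed by over 0.5 in size, and of the 34 under it 7 did. There were 102 probe sets that the annotation pairs with a ribosomal protein gene and only pseudogenes or predicted genes. Of these, 30 were called lower and 3 higher, against 10.6% and 10.5% over all probe sets.

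**Figure D4:**
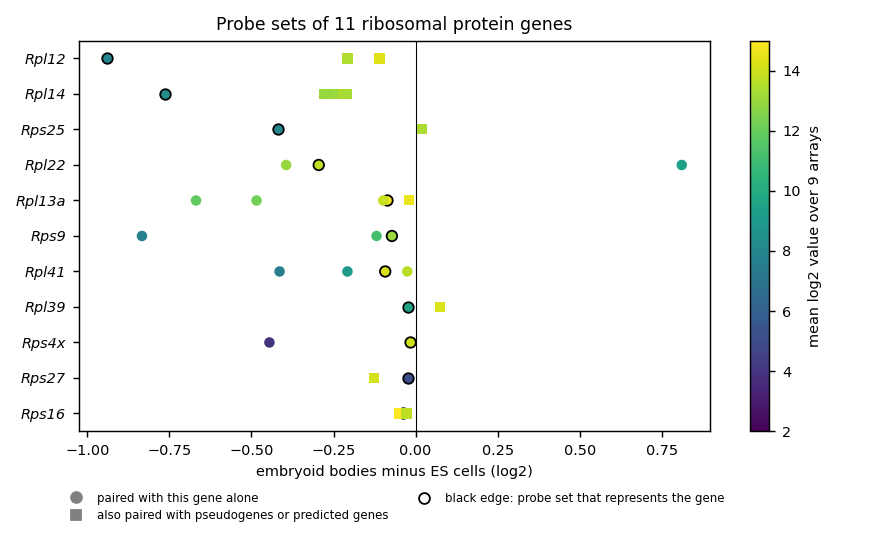
Difference in log2 level between embryoid bodies and ES cells (horizontal axis) for each probe set of 11 ribosomal protein genes, coloured by mean log2 level, with circles for probe sets paired with the gene alone, squares for those shared with pseudogenes or predicted genes, and a black edge on the probe set that represents the gene. Probe sets of Rpl12, Rpl14, Rpl22, Rpl13a and Rps9 lie far apart, and 1 probe set of Rpl22 is the only one at the right, at 0.81.

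The shared probe sets also reached 24 ribosomal protein genes that have no probe set of their own. These, represented in the same way, had a median difference of -0.07 and ran from -0.23 to 0.05. Of them 6 were called lower and 0 higher, against 14.7% and 15.7% of all genes. All 24 had means of log2 12 or more, where 38.4% of all 258 genes were called lower. On these representative probe sets 0 departed from the family in either direction, against 8.06% lower and 13.6% higher. The 6 called lower were Rpl13 (-0.23), the stalk protein Rplp1 (-0.23), Rps21 (-0.18), Rpl23a (-0.16), Rpl28 (-0.13) and Rps13 (-0.10). Other shared probe sets of the 24 genes differed by more, with -1.10 in Rpl3, -0.69 in Rpl30, 0.52 in Rpl23 and 0.49 in Rpl5. The other stalk proteins were among the 46: Rplp0 was called lower at -0.19 (adjusted p = 0.021) and Rplp2 differed by -0.08 (adjusted p = 0.15). Fau and Rps3a1, small-subunit proteins with names outside the rule, differed by -0.04 and -0.01, and neither was called.

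Of 8 listed paralogues 6 were measured, 3 of them called lower and 0 higher, against 14.7% and 15.7% of all genes. Besides Rpl39l and Rps4l this was Rps27l, a paralogue of Rps27 induced by p53, which read 13.24, 13.08, 13.27 and 13.25 in ES cells and 12.78, 12.94, 12.80, 13.04 and 13.05 in embryoid bodies. The groups came close without overlapping, and the difference was -0.29 (adjusted p = 0.015). It was larger on the other probe sets of the gene, at -0.36 and -0.35. Rpl7l1, related to Rpl7, differed by -0.28 (adjusted p = 0.063), and Rpl22l1, related to Rpl22, by 0.20 (adjusted p = 0.10) with overlapping groups.

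Rpl3l, the paralogue of Rpl3 in heart and skeletal muscle, lay at 2.66 to 2.68 in ES cells and at 2.59 to 2.66 in embryoid bodies, a difference of -0.03 (adjusted p = 0.17). These values are near the floor, on arrays where the heart genes Myl7 and Tnnt2 were higher by 9.05 and 7.82. Of the 4 skeletal muscle markers 0 were called, and 3 lay under log2 4 in both groups. The 5 measured partners of the paralogues had 2 genes called lower (Rpl22 and Rpl7) and 0 higher, against 14.7% and 15.7% of all genes. This count uses representative probe sets. Another probe set of Rpl22 was called higher, at 0.81, and the representative of Rps27 was flat at a mean of 5.05. A probe set of Rps27 shared with pseudogenes or predicted genes had a mean of 14.16 and differed by -0.13 (limma adjusted p = 0.087).

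Start sites are shown for the genes that departed, as far as RefSeq gives them, and for Rpl39 and Rpl38 as members that did not, since the TOP motif lies at the start of the transcript. The sequences are from RefSeq on GRCm38.p6, with 15 bases on either side of the annotated start, and capitals mark the longest unbroken run of C and T. Rpl39l lies at chr16:10170213-10170242 on the plus strand, Rpl12 at chr2:32961697-32961726 (plus), Rpl14 at chr9:120571502-120571531 (plus), Rpl39 at chrX:37085208-37085237 (minus) and Rpl38 at chr11:114668565-114668594 (plus).
Rpl39l: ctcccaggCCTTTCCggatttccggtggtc
Rpl12: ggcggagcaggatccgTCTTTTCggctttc
Rpl14: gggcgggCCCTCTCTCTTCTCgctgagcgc
Rpl39: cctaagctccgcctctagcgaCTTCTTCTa
Rpl38: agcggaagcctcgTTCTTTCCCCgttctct

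A run of 6 or more C or T within 10 bases of the start was present in 22 of the 40 members with a start-site entry (55.0%), against 23.0% of 27025 genes. Rpl39l, Rpl12, Rpl14 and Rpl38 were among the 22. The run of Rpl39l, 7 bases long, began at -7 and so lay wholly before the annotated start. The letters CCGGAAG, searched on both strands from 250 bases before to 50 after the start, were found in 20 of 40 (50%) against 9.93% of all genes, TATAAA on both strands in 5 (12.5%) against 15.7%, and CACGTG in 4 (10%) against 8.09%. A match describes the letters and is not a binding site.

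Other genes of ribosome production and translation had median differences farther from 0 than the 46 genes. Over all genes 14.7% were called lower and 15.7% higher. The lists were chosen with earlier results of these data known and were not matched to the 46 genes for level. Of the 46 genes, 34 had a mean of log2 12 or more, where all 258 genes had a median of -0.07. All 30 of the listed ribosome assembly genes, which process ribosomal RNA and join it with the proteins in the nucleolus, were called lower, with differences from -1.39 to -0.25 and a median of -0.83. The largest were the pre-60S factor Wdr12 (-1.39, levels of 10.07 to 10.56 in ES cells and 8.64 to 9.06 in embryoid bodies), Rrp12 (-1.37) and the U3 particle protein Rrp9 (-1.35). Of 14 genes of RNA polymerase I and its factors, which transcribe ribosomal RNA, 11 were called lower and 0 higher with a median of -0.59, led by the catalytic subunits Polr1a and Polr1b at -1.11 each. Taf1a (-0.06), Taf1b (-0.44) and Cd3eap (-0.22) were not called.

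Of 9 measured genes of mTOR and Myc control, 6 were called lower and 1 higher, against 14.7% and 15.7% of all genes. Their median difference was -0.66. Mycn, a Myc family transcription factor, differed by -1.14, the translation repressor Eif4ebp1 by -1.01 and Larp1, which binds TOP messenger RNAs, by -0.82. The S6 kinase Rps6kb2 was higher by 0.50 (adjusted p = 0.027), and Mtor itself differed by -0.02 (adjusted p = 0.88). Translation factors, whose messenger RNAs also carry TOP motifs, were nearer to the ribosomal proteins, with 8 of 15 called lower, 0 higher and a median of -0.15. Npm1 (-0.25) stands both here and among the assembly genes. The initiation factors Eif3l and Eif4b differed by -0.53 and -0.40 and the elongation factor subunit Eef1d by -0.38.

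The proteins of the mitochondrial ribosome are encoded by a separate set of nuclear genes. Of 76 measured, 44 were called lower and 4 higher, against 14.7% and 15.7% of all genes, with a median of -0.38. Mrps18b differed by -1.37 and Mrpl45 by -1.02, while Mrps6 was higher by 0.96, with levels of 8.77 to 9.11 in ES cells and 9.84 to 9.97 in embryoid bodies. These lists share the arrays of the 46 genes, and differences between lists were not tested.

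**Figure D5:**
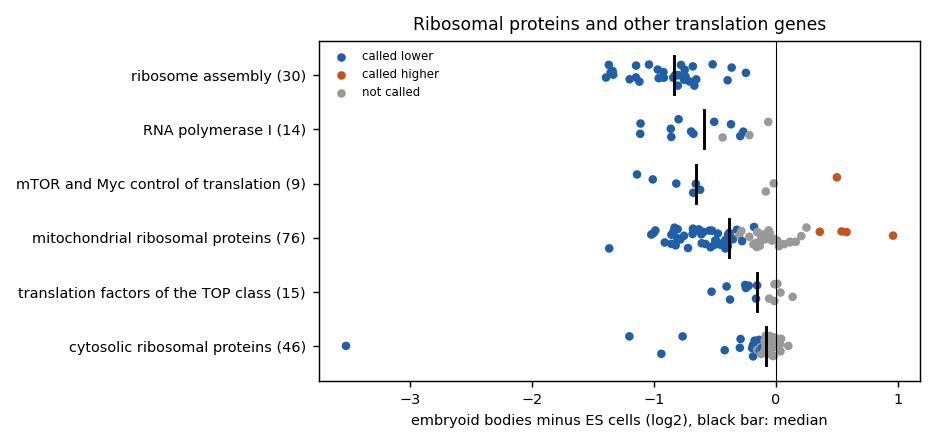
Difference in log2 level between embryoid bodies and ES cells for each gene (points) of the cytosolic ribosomal proteins and of 5 other lists, with the number of genes measured, called genes coloured and the median as a black bar. Medians run from -0.83 for ribosome assembly to -0.08 for the cytosolic ribosomal proteins, where Rpl39l lies alone at -3.52.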

How the data were processed

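For each of 9 arrays the values deposited by the authors are GCRMA intensity on a linear scale, 1 per probe set. The GCRMA method models background from the probe sequences, equalizes the arrays and combines probes into probe sets. Whether all 9 arrays were processed together is not given in the sources used here. The log2 of each deposited value was taken with no pseudocount and no further normalization. The 64 control probe sets of 45101 were left out. The array's annotation pairs some probe sets with several symbols, and these represented no gene in the main results.

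Groups were compared by limma 3.58.1 in R 4.3.3 (lmFit and eBayes with trend and robust, two-sided, Benjamini-Hochberg over 45037 probe sets), tested on simulated data with known changes. The second fit subtracted from each array the median deviation of the 46 genes. The genes named were those that departed, the 2 nearest below the threshold in each direction, the 5 with the largest fall and rise, the one closest to the family, the measured paralogues and up to 3 per list. Rpl13a's and Rps9's further probe sets and the flat genes were picked once their values were known. The members and lists were chosen with earlier results of these data known.

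Alternatives were quantile normalization, centring on array medians, neither trend nor robust step, array weights, plain _at probe sets, the mean over probe sets, a minimum of log2 4, a fold threshold, array range as a block or alone, each array left out and, added after seeing the data, shared probe sets.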

Additional observations from a re-analysis of the deposited data

Results flagged for a closer look

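Rpl3l in embryoid bodies was the 1 case among 30 groups of values examined in which a single array lay far from the rest. Array 1 read 2.59 and the nearest of the other 4 arrays 2.64, a gap of 0.718 of the whole range of the 5 arrays. All of these values are near the floor of the scale. Chance gives such a case in about 1 in 20 groups.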

How the results depend on the processing

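No paired analysis was possible because the groups share no replicate numbers. The count of 4 departing genes became 5 within arrays 7 to 10, and 7 downward and 3 upward with no minimum size. It became 2 with shared probe sets, with or without their genes added (chosen after seeing the data). With plain _at probe sets it was 5, but only 25 genes of the family remained. The 15 genes called lower became 26 with array weights, 2 at a fold of 2 and 5 within arrays 7 to 10, and 3 were called higher after quantile normalization. Shares over all genes were not counted under these alternatives. The median of -0.08 was -0.023 after quantile normalization, -0.14 within arrays 1 to 6 and -0.037 within arrays 7 to 10. With plain _at probe sets the median was -0.19 over the 25 genes left. Rps19, Rps14, Rpl38 and Rpl13a were not among these, so the 2 medians do not compare the same genes. With one array left out, 10 to 22 genes were called lower (22 without ES cell array 10), 0 to 0 higher, the median ran from -0.11 to -0.06, and 4 to 4 genes departed downward and 0 to 0 upward. Rpl22 turned to 0.041 with the mean over its probe sets and Rps25 to 0.020 with shared probe sets. The cause of these changes was not tested. Rpl39l and Rps4l kept direction and call in all 22 alternatives, at -3.82 to -3.23 and -1.31 to -1.13. Signal near the floor limits the representative probe sets of Rps16 and Rpl3l.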
